A study of Mus musculus with 4 samples.

Results

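Transcripts of 8 surface receptor genes of the SLAM family and of the adaptor gene *Sh2d1a* were examined in splenic CD4+ T cells. The mice were with and without a conditional deletion of *Satb1*. The members were the listed symbols *Slamf1*, *Slamf6*, *Slamf7*, *Slamf8*, *Slamf9*, *Ly9*, *Cd48*, *Cd84* and *Sh2d1a*, and all 9 were found among the 55367 gene symbols of the count tables. They were taken by name, with earlier results of these data known. The series holds 4 RNA-seq libraries of peripheral CD4+ T cells from spleen, all from C57BL/6 mice. The label is WT for 2 of them and *Satb1* conditional knockout for the other 2, called cKO here. In cKO mice the *Satb1* allele is flanked by loxP sites (*Satb1* F/F) and, according to the study's methods, is cut by Cre driven from *Thpok*, a gene that T cells switch on as they commit to the CD4 lineage. The labels of these libraries name neither the Cre line nor the age or sex of the mice, and the methods describe young adult mice of mixed sex. The design text of the series also names E8I-cre, a driver for CD8 T cells. The labels give sorted CD4+ T cells and name no subset. In such bulk samples, fewer cells of a type and less RNA per cell cannot be told apart.

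SLAM family receptors are immunoglobulin-like proteins through which lymphocytes touch each other. Most members bind a copy of themselves on the neighbouring cell, whereas CD48 binds 2B4 and CD2. The cytoplasmic tails of most members carry tyrosine switch motifs that recruit the small adaptor SAP, the product of *Sh2d1a*, which brings in the kinase Fyn. SAP is known to be needed for lasting contact between T cells and B cells, for follicular helper T (Tfh) cells and for the development of NKT cells, and its loss in humans causes X-linked lymphoproliferative disease.

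In the cKO libraries *Slamf6* fell by 26.2%, and it was the only member past the threshold. *Cd84*, its neighbour in the cluster, had a log2 fold change of -0.30, and *Slamf7* had the largest difference in size, -1.13, with widely spaced cKO libraries, but neither passed. *Ly9*, *Cd48*, *Slamf1* and *Sh2d1a* had log2 fold changes between -0.056 and 0.14. *Slamf8* and *Slamf9* gave between 0 and 5 reads in any library.

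The 8 receptor genes lie on chromosome 1 and *Sh2d1a* on chromosome X. On GRCm38, 6 of the receptor genes lie near each other, with other genes between some of them, in the order *Ly9* (171588624 to 171607410, minus strand), *Slamf7* (171632403 to 171653035, minus strand), *Cd48* (171682009 to 171705258), *Slamf1* (171767127 to 171801184), *Cd84* (171839697 to 171890718) and *Slamf6* (171917515 to 171953170), the last 4 on the plus strand. *Slamf9* (172475358 to 172478575) and *Slamf8* (172581758 to 172590568, minus strand) lie farther along the chromosome. To show the sequence next to the start of *Slamf6*, the called member, and of the members before it on the same strand whose windows overlap no annotated exon, *Cd84* and *Slamf1*, the 240 bases from position -250 to -11 of the RefSeq start are given 5′ to 3′ from the RefSeq GRCm38.p6 table, with capitals on any match to the motifs described next.
*Slamf1* (chr1:171766882-171767121, plus strand): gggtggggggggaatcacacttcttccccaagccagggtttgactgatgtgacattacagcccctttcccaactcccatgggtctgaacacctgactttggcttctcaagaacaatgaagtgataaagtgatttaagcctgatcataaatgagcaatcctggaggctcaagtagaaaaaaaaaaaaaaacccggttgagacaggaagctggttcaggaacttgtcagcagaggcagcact
*Cd84* (chr1:171839447-171839686, plus strand): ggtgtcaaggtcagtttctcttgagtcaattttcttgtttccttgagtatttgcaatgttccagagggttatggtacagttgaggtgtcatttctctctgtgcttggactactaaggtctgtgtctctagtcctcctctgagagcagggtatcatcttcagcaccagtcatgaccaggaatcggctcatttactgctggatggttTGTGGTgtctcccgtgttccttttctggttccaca
*Slamf6* (chr1:171917212-171917451, plus strand): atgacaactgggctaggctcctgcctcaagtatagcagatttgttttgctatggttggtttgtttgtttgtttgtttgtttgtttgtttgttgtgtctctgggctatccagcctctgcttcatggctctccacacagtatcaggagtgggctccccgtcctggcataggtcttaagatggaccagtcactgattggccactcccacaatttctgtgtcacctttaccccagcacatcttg
Each window was searched on both strands for 3 short motifs, TGTGGT (bound by RUNX proteins), GGAAGT (ETS proteins) and CTTTGA (TCF and LEF proteins). The window of *Cd84* held a single match, to TGTGGT, and those of *Slamf1*, *Slamf6* and *Slamf7* held none. The *Cd48* window held TGTGGT and CTTTGA, that of *Slamf9* GGAAGT and CTTTGA, and that of *Slamf8* GGAAGT. Of 32807 RefSeq windows of this length, 13.6% held TGTGGT, 18.7% held GGAAGT and 13.5% held CTTTGA. No match says only that these letters are not in this window. SATB1 is named for binding AT-rich sequence. A and T made up 52.1% of the *Slamf6* window, 53.8% of that of *Cd84* and 52.9% of that of *Slamf1*. The median over all windows was 47.9%. These shares are common, being reached by 35.4%, 29.9% and 32.6% of all windows, in the same order. Windows were found for 7 of the 9 members, and the other 4 ran from 45.0% for *Slamf8* and 49.2% for *Slamf9* to 53.8% for *Cd48* and 62.1% for *Slamf7*. The *Slamf7* share was reached by 9.28% of all windows, and that window lies inside the span of the gene given above.

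The depth was modest and even across groups. Gene counts ranged from 4495902 (WT 2) to 6555699 (WT 1), with 5372419 and 4628467 for the cKO libraries, and expression is given as CPM, the count per 1e+06 gene counts on TMM-scaled library sizes. The gene count of *Satb1* did not separate the groups, at 868 and 984 CPM in WT and 945 and 847 CPM in cKO, so it does not check the labels, and the sources used here do not give the deleted part of the gene. WT and cKO therefore stand for the labels throughout. *Xist* had 5447 and 4235 counts in WT and 9 and 6 in cKO, so sex and genotype cannot be told apart in these libraries. Among the members this limit bears most directly on the X-linked *Sh2d1a*. It also bears on other X-linked genes given below, such as *Cybb* and *Cd40lg*. The T cell genes *Cd3e* (788 to 966 CPM) and *Cd4* (1183 to 1279 CPM) were high in every library. *Foxp3*, the defining gene of regulatory T cells, rose from 142 and 121 CPM in WT to 405 and 547 CPM in cKO (log2 fold change 1.86, edgeR adjusted p = 0.000447), and its part in the results for the members was not tested. Of 12403 genes tested, 4.30% were called in either direction, 1.95% lower and 2.35% higher in cKO, by the edgeR quasi-likelihood test at an adjusted p under 0.05.

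**Figure D1:**
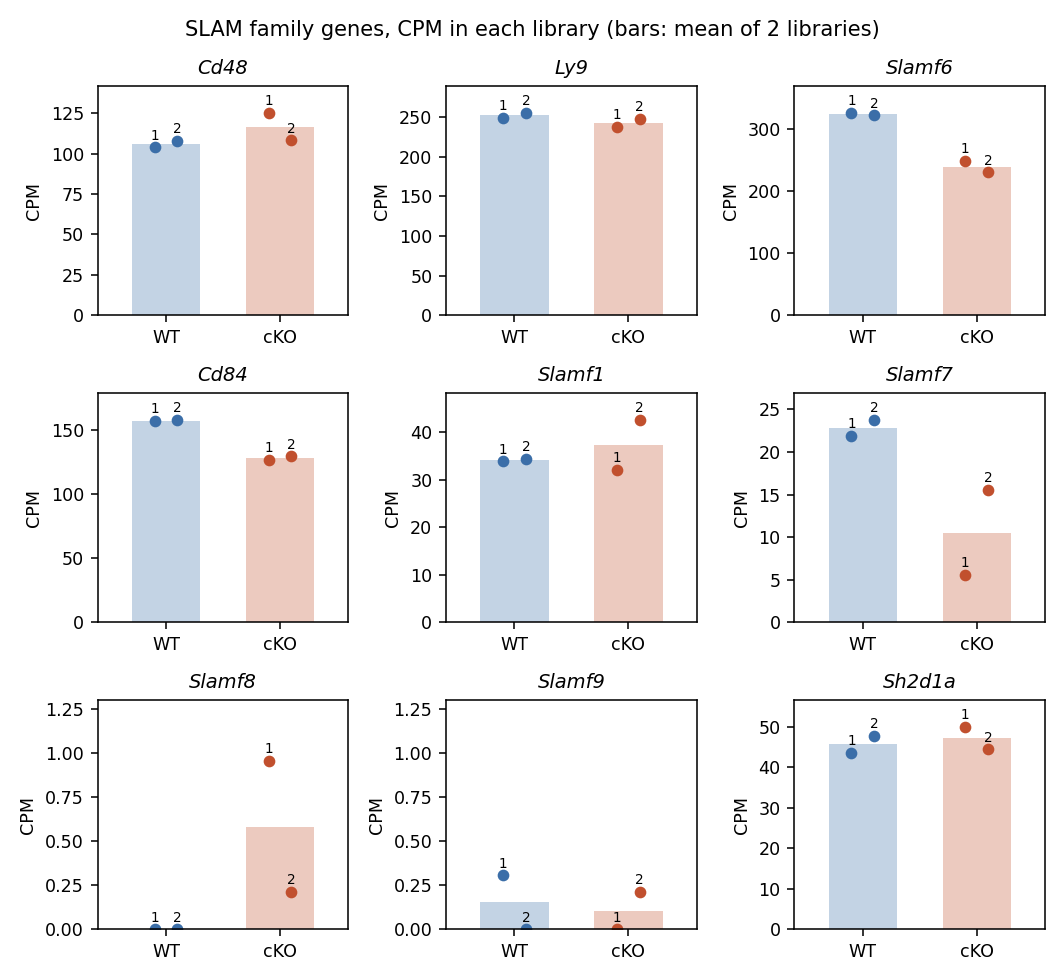
CPM of each SLAM family gene in each library. Each panel is a gene with a linear axis from 0, points are libraries numbered by replicate, and bars are means of 2 libraries. *Slamf6* and *Cd84* show tight pairs that are lower in cKO, *Slamf7* shows cKO libraries far apart, and *Slamf8* and *Slamf9* stay under 1 CPM.

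Levels of different genes were compared per kilobase of exonic sequence. In WT, *Cd48*, which is anchored to the membrane by a lipid and has no tail of its own, stood highest at 89.1 ± 2.46 CPM per kilobase (SD, n = 2). It was followed by *Ly9* at 76.2 ± 1.28, *Slamf6* at 29.9 ± 0.24 and *Cd84* at 25.0 ± 0.10 CPM per kilobase (SD, n = 2 each). *Sh2d1a* had 8.29 ± 0.53, *Slamf1* 5.53 ± 0.055 and *Slamf7* 4.98 ± 0.29 CPM per kilobase (SD, n = 2 each). The values of the WT libraries did not overlap between any neighbours in this order of 7 genes. In cKO the 7 genes stood in the same order, again with no overlap between neighbours. The order partly rests on the length used, since *Slamf6* has 10.8 kb of exonic sequence over 7 annotated transcripts. With the longest coding transcript as the length, an alternative chosen after seeing the data, *Ly9* (101 CPM per kilobase) stood above *Cd48* (89.3) in WT, and *Slamf6* reached 56.6, *Cd84* 45.7 and *Sh2d1a* 37.3. On that scale *Sh2d1a* in cKO, at 40.8 and 36.3 CPM per kilobase, overlapped both *Slamf6*, at 43.3 and 40.2, and *Cd84*, at 36.9 and 37.6.

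*Slamf6* encodes Ly108, a receptor that binds itself on the adjoining cell and is high on naive, follicular helper and stem-like T cells. WT 1 and WT 2 held 2131 and 1438 of its reads, against 1302 and 1083 for cKO 1 and cKO 2, which makes 326 and 322 CPM against 248 and 230.2 CPM. Both cKO libraries lay below both WT libraries, and the distance between genotypes was several times the spread within either. The fitted log2 fold change came to -0.44 (SE 0.096), a fold of 0.74 with a 95% interval from 0.63 to 0.86, and the edgeR quasi-likelihood adjusted p was 0.0412. DESeq2 gave an adjusted p of 0.0369. The call is close to the threshold and needs both WT libraries. Without WT 1 the adjusted p was 0.274 and without WT 2 it was 0.351 in the same edgeR test, with log2 fold changes of -0.42 and -0.45. Any fit that leaves out a library takes its spread from the intact pair of the other genotype. The WT pair was the tighter one, so a call made without a cKO library rests on a single cKO library and on WT spread, and 1790 genes were called without cKO 2 against 533 with all libraries. The count does not resolve the annotated isoforms of the gene, which differ in their tails. Among tested genes with a mean of at least 5 CPM, *Pfas*, *Pum3* and *Slc7a5* had log2 CPM profiles nearest to *Slamf6* over the 4 libraries, with root mean square distances of 0.013, 0.021 and 0.023 after centring. None of the 3 was itself called.

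*Cd84*, whose product binds itself and takes part in adhesion between T cells and B cells, had 157 and 158 CPM in WT and 127 and 129 CPM in cKO. Both pairs were within 3 CPM and did not overlap, yet the difference did not pass the threshold. The fitted log2 fold change came to -0.30 (SE 0.096), the fold was 0.81 with a 95% interval from 0.70 to 0.95, and the edgeR adjusted p was 0.135. It passed only without cKO 2, with an adjusted p of 0.0335 that rests on a single cKO library and WT spread.

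*Slamf7* encodes CRACC, a receptor best known from NK cells and cytotoxic lymphocytes. Its reads numbered 143 and 106 in WT, and 29 and 73 in cKO. On the CPM scale WT stood at 21.9 and 23.8, cKO 1 at 5.53 and cKO 2 at 15.5. Both cKO libraries were below both WT libraries, but the cKO libraries differed from each other by nearly as much as their mean differed from WT. The fitted log2 fold change came to -1.13 (SE 0.36), the fold was 0.46 with a 95% interval from 0.26 to 0.81, and the edgeR adjusted p was 0.133. The value rests on cKO 1. Without that library the log2 fold change was -0.55 with an adjusted p of 0.101, and without cKO 2 it was -2.03 with an adjusted p of 2.36e-07, both with spread from WT alone. Without WT 1 it was -1.18 with an adjusted p of 0.0305, and without WT 2 it was -1.07 with an adjusted p of 0.393. Part of the exonic sequence of *Slamf7*, 423 bases, overlaps the antisense gene *Gm37787*, and no source used here says whether reads were assigned by strand.

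*Ly9* encodes CD229, which binds itself and is abundant on T cells. It had 249 and 255 CPM in WT and 237 and 248 CPM in cKO, with cKO below WT by about 1 CPM at the nearest pair. The log2 fold change was -0.056 (SE 0.094, edgeR adjusted p = 0.808), and the 95% interval of the fold, 0.83 to 1.11, leaves out a fall as large as the estimate for *Slamf6*. *Ly9* lies within the span of *Cd244a* on the opposite strand, without overlap of exons. *Cd48* had 104 and 108 CPM in WT and 125 and 108 CPM in cKO, and only cKO 1 stood clearly above WT. Its log2 fold change was 0.14 (SE 0.11, edgeR adjusted p = 0.550), with a fold between 0.92 and 1.32. The estimate for *Cd48* was 0.030 without cKO 1 and 0.24 without cKO 2.

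*Slamf1* encodes CD150, which binds itself and acts on cytokine output of helper T cells. It had 33.8 and 34.3 CPM in WT and 32.0 and 42.5 CPM in cKO, so that the cKO libraries lay on either side of WT. The log2 fold change of 0.13 (SE 0.16, edgeR adjusted p = 0.734) changed sign without cKO 2, to -0.086. *Sh2d1a*, the gene of SAP, had 43.6 and 47.7 CPM in WT and 49.9 and 44.4 CPM in cKO. These libraries overlapped, with a log2 fold change of 0.052 (SE 0.13, edgeR adjusted p = 0.874) and a fold between 0.84 and 1.27. Exons of *Tenm1* on the opposite strand overlap 1465 bases of *Sh2d1a*.

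*Slamf8* and *Slamf9*, receptors of macrophages and dendritic cells, were dropped by the low-count filter. *Slamf8* had 0 counts in both WT libraries, 5 in cKO 1 and 1 in cKO 2. *Slamf9* had 2 and 0 counts in WT and 0 and 1 in cKO. A library at or under 3 counts, which is between 0.46 and 0.67 CPM here, was treated as at the floor, and only *Slamf8* in cKO 1 exceeded it. The 10 myeloid marker genes summed to 29.1 and 37.4 CPM in WT and to 100.4 and 56.1 CPM in cKO 1 and cKO 2. Of the 7 myeloid markers tested, 3 were called higher, *Lyz2*, *Cybb* and *S100a9*, where 2.35% of all tested genes were called higher, and none lower. *Itgam* had a negative log2 fold change of -0.85 (edgeR adjusted p = 0.374). *Cybb* lost its call in DESeq2 (adjusted p = 0.113), on thinned counts (0.0534) and without WT 1 (0.114) or WT 2 (0.112). No marker of that list was at 0 in all libraries. The 7 dendritic cell markers summed to 29.4 and 25.5 CPM in WT and to 32.6 and 35.1 CPM in cKO, and neither of the 2 tested by edgeR was called, with *Itgax* at a log2 fold change of -1.57 (adjusted p = 0.168) and *Irf8* at 0.46 (adjusted p = 0.193). Both had an unadjusted p under 0.05, and DESeq2 called 0. The part of either list in the *Slamf8* reads was not tested.

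**Figure D2:**
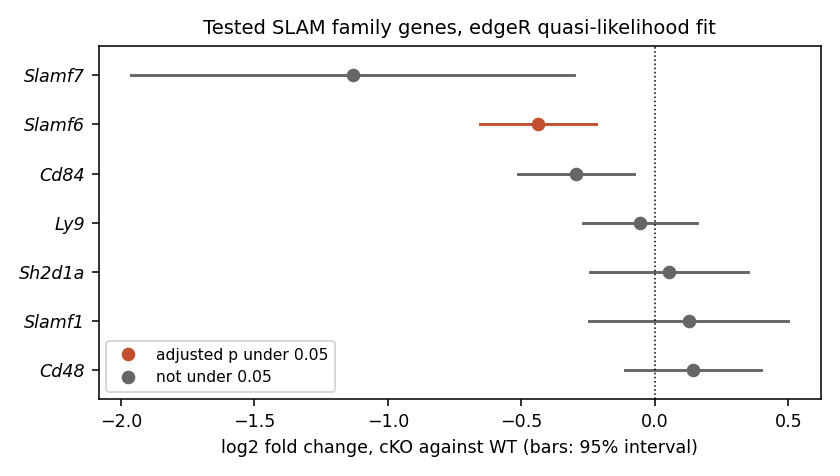
Log2 fold change of the 7 tested SLAM family genes, cKO against WT. Points are estimates of the edgeR quasi-likelihood fit and bars are 95% intervals. *Slamf6* alone is called, the intervals of *Cd84* and *Slamf7* also lie below 0 before adjustment over all genes, and those of the other 4 genes span 0.

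Counted together, 1 of the 7 tested members was called lower and 0 higher in the edgeR test, against 4.30% of all tested genes called in either direction. Before adjustment 3 members had p under 0.05, all lower, where 19.1% of all tested genes had such a p in either direction. DESeq2 called the same single member. Libraries of the genotypes did not overlap for 4 members lower in cKO and 1 higher. That was so for 50.3% of all tested genes, where 25.4% were lower and 24.8% higher. The median log2 fold change of the members was -0.056, beside -0.0015 for all tested genes. With so few members a share says little, and no list test was run.

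The summed level of the 8 receptors was 891 and 901 CPM in WT and 776 and 774 CPM in cKO, a mean of 896 ± 6.57 against 775 ± 1.15 (SD, n = 2 each). In this sum of reads, which is not scaled by length, the net difference of means was -121 CPM. *Slamf6* differed by -84.9 CPM, *Cd84* by -29.1, *Slamf7* by -12.3 and *Ly9* by -9.55 CPM, while *Cd48* differed by 10.8 and *Slamf1* by 3.22 CPM the other way. The share of *Slamf6* among receptor reads was 36.6% in WT 1 (95% Wilson interval 35.3 to 37.8) and 35.8% in WT 2 (34.3 to 37.3). It was 32.0% in cKO 1 (30.6 to 33.4) and 29.7% in cKO 2 (28.3 to 31.3), below WT in both. The share of *Ly9* went from 27.9% and 28.3% in WT to 30.6% and 32.0% in cKO, while its own level was no higher in cKO. The share of *Cd48* went from 11.65% and 11.99% to 16.1% and 14.0%. The shares do not rank the genes, since these reads are not scaled by length. They do not depend on library scaling, and their intervals cover counting error only.

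To place the members among their neighbours, all 57 other genes from 200 kb before *Ly9* to 200 kb beyond *Slamf8* were listed. This stretch includes the gap between *Slamf6* and *Slamf9*, and 18 of the genes were tested. Of these, 1 was called higher and 1 lower, or 11.1% against 4.30% of all tested genes. The 2 calls became 4 with the likelihood ratio test, with the replicate block or without cKO 1, 5 without the low-count filter, 6 without cKO 2, and 1 in DESeq2 or without WT 1 or WT 2. *Usf1*, a transcription factor gene on the side of *Ly9*, had 47.0 and 49.5 CPM in WT and 72.4 and 66.1 CPM in cKO (log2 fold change 0.52, SE 0.12, edgeR adjusted p = 0.0447). Its call was lost in DESeq2 (adjusted p = 0.185) and without either WT library (0.287 and 0.310). *Tagln2*, an actin-binding gene between *Slamf9* and *Slamf8*, had 478 and 386 CPM in WT and 241 and 235 CPM in cKO (log2 fold change -0.86, SE 0.12, edgeR adjusted p = 0.00683). *Vangl2*, the nearest tested gene beyond *Slamf6*, was not called, with a log2 fold change of 0.82 (SE 0.20, edgeR adjusted p = 0.0635). *Gm10521*, which lies between *Cd84* and *Slamf6*, was not called either, with a log2 fold change of 0.82 (SE 0.26, edgeR adjusted p = 0.125). A positive log2 fold change was found for 13 of the 18 tested neighbours and for 49.8% of all tested genes.

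**Figure D3:**
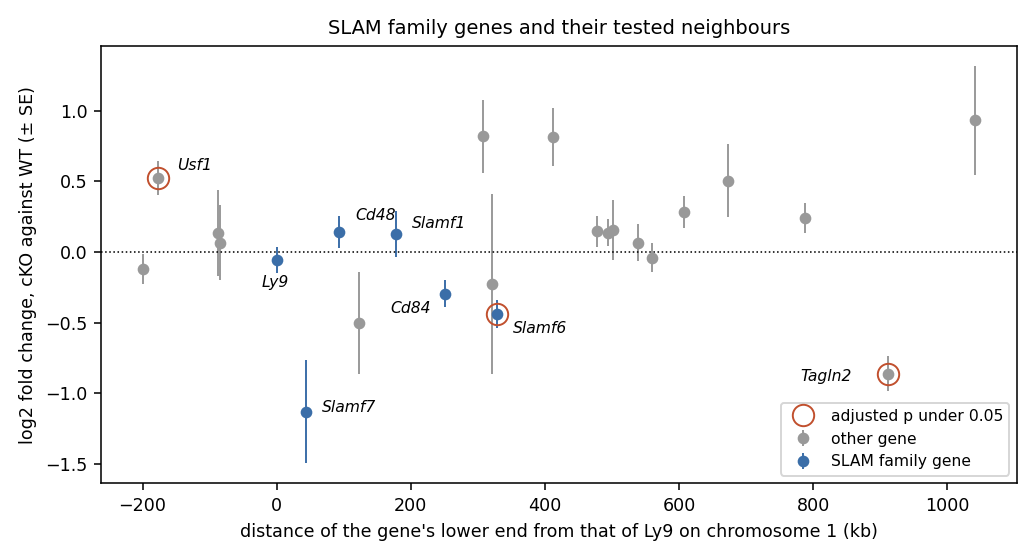
Log2 fold change of SLAM family genes and their tested neighbours by distance along chromosome 1. The x axis is the distance in kb of each gene's lower end from that of *Ly9*, the y axis is the edgeR estimate with its SE, and open circles mark called genes. *Slamf6*, *Usf1* and *Tagln2* are called, and 13 of the 18 neighbours lie above 0.

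Of receptors that bind or act beside the listed members, 5 symbols were taken and 4 were in the table. Of these, 3 were tested and 1 was called, where 4.30% of all tested genes were. *Crtam*, an adhesion receptor of activated cytotoxic T cells that is not a SLAM gene, fell from 27.8 and 28.0 CPM in WT to 2.67 and 6.59 CPM in cKO. Its log2 fold change was -2.61 (SE 0.32, edgeR adjusted p = 0.00338), and it was -2.08 without cKO 1 and -3.37 without cKO 2. *Cd2*, a receptor for CD48, had 489 and 447 CPM in WT and 524 and 481 CPM in cKO, which overlapped (log2 fold change 0.10, edgeR adjusted p = 0.665). *Cd226*, the gene of the adhesion receptor DNAM-1, had 83.5 and 88.3 CPM in WT and 65.9 and 71.4 CPM in cKO (log2 fold change -0.32, edgeR adjusted p = 0.158). *Cd244a*, the gene of 2B4, was not in the member list, although it lies in the same cluster on chromosome 1. It had 15 and 5 counts in WT and 3 in each cKO library and was not tested.

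Of 18 listed genes of SLAM signalling 16 were tested, and none was called by the edgeR quasi-likelihood test or by DESeq2, while 3 of the 16 had an unadjusted p under 0.05, against 19.1% of all tested genes. *Fyn*, the kinase recruited by SAP, had 487 and 515 CPM in WT and 551 and 561 CPM in cKO (log2 fold change 0.15, edgeR adjusted p = 0.467). *Inpp5d*, the gene of the inhibitory lipid phosphatase SHIP-1, was closest to the threshold. It had 219 and 214 CPM in WT and 272 CPM in both cKO libraries, a log2 fold change of 0.33 (SE 0.092, edgeR adjusted p = 0.0905). It was called without cKO 1 (adjusted p = 0.0160) and without cKO 2 (0.00622), fits with spread from WT alone. *Sh2d1b1*, the gene of the adaptor EAT-2, had 0 counts in WT, 4 in cKO 1 and 1 in cKO 2.

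In the list of Tfh and other SAP-dependent T cells, 10 of 11 tested genes had a positive log2 fold change, as did 49.8% of all tested genes. The exception, *Zbtb16*, had 3.37 and 3.81 CPM in WT and 1.71 and 3.19 CPM in cKO (log2 fold change -0.55, edgeR adjusted p = 0.538). Of 13 listed genes 11 were tested, and 3 were called higher and 0 lower, where 2.35% of all tested genes were called higher. An unadjusted p under 0.05 was found for 6, against 19.1% of all, and DESeq2 called 2. *Bcl6*, the master regulator of Tfh cells, rose from 33.5 and 31.4 CPM to 48.4 and 51.0 CPM (log2 fold change 0.61, SE 0.13, edgeR adjusted p = 0.0361), a call lost in DESeq2 (0.163) and without WT 1 (0.0837) or WT 2 (0.324). *Cd40lg*, the X-linked gene of the helper ligand CD40L, rose from 85.8 and 81.3 CPM to 132 and 118 CPM (log2 fold change 0.58, edgeR adjusted p = 0.0232), which was lost without WT 1 (0.0569) or WT 2 (0.261). *Pdcd1*, the gene of the inhibitory receptor PD-1, rose from 27.2 and 24.2 CPM to 49.9 and 45.7 CPM (log2 fold change 0.89, edgeR adjusted p = 0.0113), and was lost without WT 2 (0.117). *Cxcr5*, the homing receptor of Tfh cells, had 57.4 and 55.3 CPM in WT and 47.4 and 67.6 CPM in cKO, on either side of WT (log2 fold change 0.025, edgeR adjusted p = 0.959). The called genes of this list rose while *Slamf6* fell and *Sh2d1a* had no detectable difference.

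**Figure D4:**
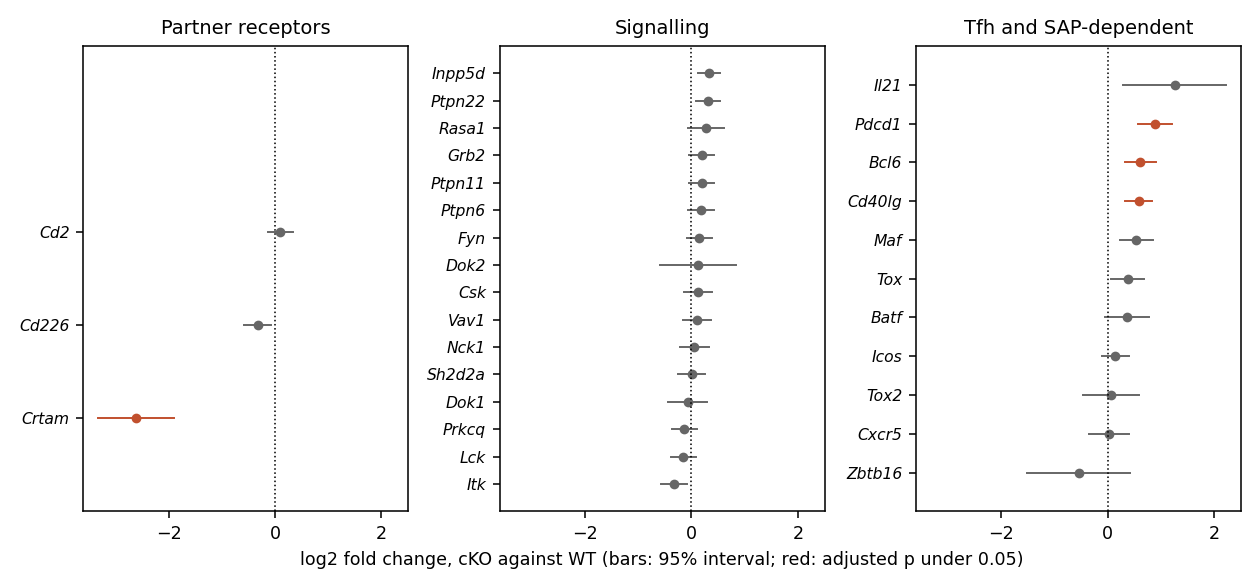
Log2 fold change of tested partner receptors, signalling genes and Tfh or SAP-dependent genes. Points are edgeR estimates, bars are 95% intervals, and red marks an adjusted p under 0.05. *Crtam* is called lower and *Pdcd1*, *Bcl6* and *Cd40lg* higher, and no signalling gene is called.

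Marker lists of other lymphocytes are given beside *Slamf7*, which was not called. The 8 NK marker genes summed to 184 and 167 CPM in WT and to 52.4 and 46.8 CPM in cKO 1 and cKO 2. Of the 5 tested, 4 were called lower, *Gzma*, *Gzmb*, *Prf1* and *Eomes*, genes that activated T cells also use, and none higher, where 1.95% of all tested genes were called lower. Of the defining NK genes, *Ncr1* had 0 to 3 counts, *Klre1* 0 or 1 and *Klra8* 0 in every library. *Klrb1c*, the gene of NK1.1, had 24 and 7 counts in WT and 11 and 2 in cKO (log2 fold change -1.07, edgeR adjusted p = 0.437). *Gzmb*, a cytotoxic protease gene, fell from 62.6 and 54.2 CPM to 3.05 and 5.95 CPM (log2 fold change -3.72, edgeR adjusted p = 0.000127). Of the 10 tested genes of the activated or memory T cell list, 5 were called lower and 1, *Cd69*, was called higher, against 1.95% and 2.35% of all tested genes. Those called lower included *Ly6c2*, *Ccl5* and *Tbx21*. The call of *Tbx21* (edgeR adjusted p = 0.0494) was lost in DESeq2 (0.101), on total counts (0.0534), without X and Y genes (0.0524), and without WT 1 (0.158) or WT 2 (0.0932). The call of *Cd69* was lost without WT 2 (edgeR adjusted p = 0.193). The CD8 marker *Cd8b1* also fell (log2 fold change -0.91, edgeR adjusted p = 0.0201), a call lost without WT 2 (0.156), while *Cd8a* was between 4.25 and 6.86 CPM in all libraries. The part of these cells or genes in the *Slamf7* value was not tested.

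**Figure D5:**
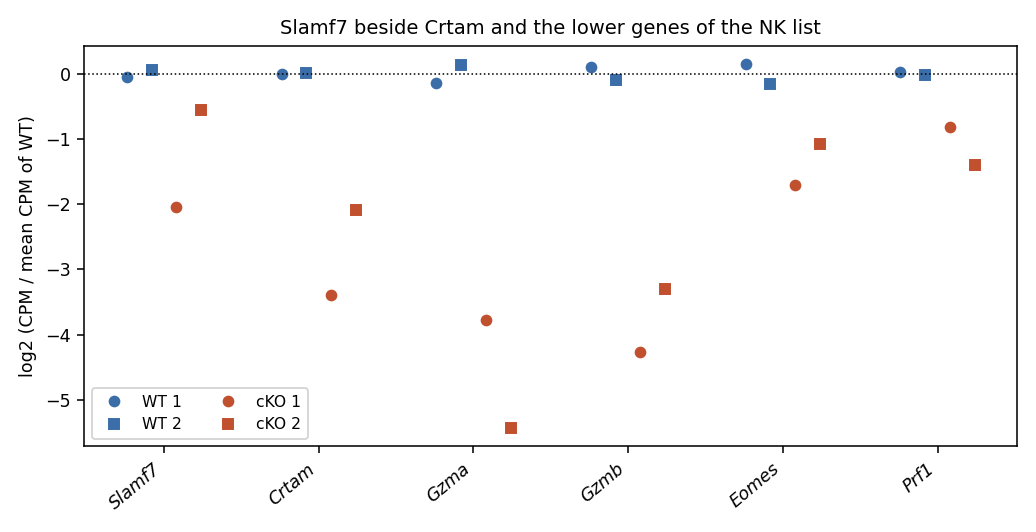
Log2 of CPM over the WT mean for *Slamf7*, *Crtam* and the called lower genes of the NK list. Each symbol is a library, blue for WT and red for cKO, with circles for replicate 1 and squares for replicate 2. All genes other than *Slamf7* are shown because they were called lower, so their place below WT follows from that choice. *Slamf7*, which was not called, is also lower in both cKO libraries. *Slamf7*, *Crtam*, *Gzmb* and *Eomes* have their lower value in cKO 1, *Gzma* and *Prf1* in cKO 2.

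B cells carry several SLAM receptors too. The 10 B cell markers summed to 21.7 and 29.6 CPM in WT and to 118 CPM in cKO 1 and 43.6 CPM in cKO 2, and *Pax5* was called higher among the 5 tested (log2 fold change 3.001, edgeR adjusted p = 0.0407). That call was lost without WT 2 (adjusted p = 0.138) and without cKO 1 (0.0919), where the log2 fold change was 1.93, and it was 3.59 without cKO 2. Of all tested genes 2.35% were called higher. An unadjusted edgeR p under 0.05 was found for 4 of the 5 tested B cell markers, against 19.1% of all tested genes. DESeq2 called 3 of the listed B cell markers. No marker of the list was at 0 in every library. The library with the most B cell RNA, cKO 1, also had the highest *Cd48* value, at 125 CPM. The part of B cell RNA in the *Cd48* value was not tested. The naive T cell list was split, with *Ccr7* called lower (log2 fold change -0.62, edgeR adjusted p = 0.0199) and *Il7r* higher (1.04, adjusted p = 0.0257) among 7 tested genes, against 4.30% of all tested genes called. *Il7r* lost its call in DESeq2, with an adjusted p of 0.0899, and *Ccr7* without WT 2, with an adjusted p of 0.262.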

How the data were processed

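RNA of sorted CD4+ T cells was sequenced as 4 libraries. Per the labels, the authors aligned reads to mm10 with HISAT2 2.1.0 and counted them with HTSeq, and they deposited raw counts per gene symbol. The annotation and strand setting are not given in the sources used here. Summary lines were left out, and 59.4% to 64.5% of uniquely aligned reads lay outside features.

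Positions and exonic lengths came from GENCODE M21 (GRCm38, the assembly of mm10), which held 53365 of the symbols. In R 4.3.3 with edgeR 4.0.16, genes were kept by filterByExpr, libraries were TMM-scaled, and genotype was tested with the quasi-likelihood F test, two-sided, with Benjamini-Hochberg adjustment over 12403 genes and a call at an adjusted p under 0.05. SE is the log2 fold change over the square root of F. The common biological coefficient of variation was 10.3%. With 2 libraries against 2, an exact permutation test of a single gene cannot go below 0.333, so p-values rest on spread shared across genes. The study describes the replicates as biological, while the labels name no animal, and p-values measure only the spread between these libraries. Counts of replicates were compared by chi-square, which over its degrees of freedom was 2.83 in WT and 6.68 in cKO, above sampling noise.

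On simulated counts, 3.6% of 197 genes changed 1.35-fold and 80.0% of 195 genes changed 2-fold were recovered. DESeq2 1.42.0 and the other alternatives are given at the end. The members and lists were chosen with earlier results of these data known. All 9 members were named, with the called genes of the related lists and fixed partners. Values of some listed marker genes are not reported here. Plots used matplotlib 3.10.9.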

Additional observations from a re-analysis of the deposited data

How the results depend on the processing

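The direction of the called member *Slamf6* held in every alternative, and its log2 fold change spanned -0.50 to -0.38 over the fits that each leave out a library. In each of these fits the lone library is assumed to vary like the intact pair of the other genotype, and with a WT library left out the call was lost. The number of members called was 2 with the edgeR likelihood ratio test, 2 without the low-count filter and 2 with the replicate block, *Slamf7* being added each time (log2 fold changes of -1.12, -1.14 and -1.22). It was 0 at an adjusted p under 0.01, and 0 (without WT 2) to 3 (without cKO 2) over the leave-one-out fits. *Slamf7* ran from -2.03 to -0.55, *Cd84* from -0.31 to -0.28, *Slamf1* from -0.086 to 0.32 and *Sh2d1a* from -0.036 to 0.14 in those fits. The members' median moved to -0.18 without X and Y genes, which removes *Sh2d1a*.

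The number of genes called among all, 533, was 1096 with the likelihood ratio test, 1367 without the low-count filter, 1165 with the replicate block, and 180 (without WT 2) to 1790 (without cKO 2) over the leave-one-out fits, with 1491 without cKO 1. Calls in the partner, signalling and Tfh lists, 4, became 7 without the low-count filter and 1 (without WT 2), 9 (without cKO 1) or 13 (without cKO 2) over the leave-one-out fits, with 3 without WT 1. For these moves the cause was not tested. *Cxcr5* changed sign on thinned counts (-0.0095) and spanned -0.25 to 0.26 over the leave-one-out fits, where *Satb1* spanned -0.13 to 0.042. Replicate numbers share no stated source, and over all genes the deviations of libraries with equal numbers had a correlation of 0.0655, so the block is no paired design.

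In the simulated counts most changes of about the size seen for *Slamf6* were missed. Those changes were drawn over genes of all levels with a common dispersion, so the share recovered at the level of a given member is not known. Members without a call are not shown to be unchanged, and their intervals give the range left for each.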
